A study of Mus musculus with 160 samples.

Results

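The genes described here are 10 mouse genes whose human counterparts are known as risk genes of inflammatory bowel disease (IBD): *Nod2*, *Card9*, *Atg16l1*, *Lrrk2*, *Xiap*, *Il10ra*, *Il10rb*, *Ptpn2*, *Ptpn22* and *Ncf4*. They were taken by symbol from the 39179 Ensembl genes counted in every file; all 10 were found and were tested in every comparison. RNA of the distal colon was sequenced from 160 mice of 4 knockout lines, in a study that asked whether genes predicted to drive IBD networks alter intestinal inflammation. The knocked-out genes were *Nckap1l*, which encodes HEM1, an actin regulator of blood cells, *Dock2*, an activator of Rac in leukocytes, *Gpsm3*, a modulator of G protein signalling, and *Dok3*, an adaptor that restrains immune receptor signals.

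Each line comprised homozygous knockout (-/-) and wild-type mice. The *Nckap1l* line held 16 *Nckap1l*-/- samples (12 males, 4 females) and 15 wild-type samples (7 males, 8 females) of strain C57BL6/J, taken on day 12. The *Dock2* line held 18 *Dock2*-/- samples (10 males, 8 females) and 24 wild-type samples (12 males, 12 females) of C57BL6/J, taken on day 10. The *Gpsm3* line held 20 *Gpsm3*-/- and 20 wild-type males of C57BL6/J, and the *Dok3* line 26 *Dok3*-/- and 21 wild-type males of strain 129, both taken on day 10. Mice were 8 to 10 weeks old, came from heterozygous parents after re-derivation of existing knockout models, and shared cages with littermates of mixed genotype. The colitis protocol was dextran sulfate sodium (DSS), which injures the colonic epithelium, in the drinking water for 5 days and then plain water, for 5 more days in general and for 7 in *Nckap1l* mice. The labels give a DSS dose of 3% for the *Dock2* and *Gpsm3* lines and 3.5% for the *Dok3* line, and the methods give 2.8% for the *Nckap1l* line and a first *Dok3* round at 3%. The series holds treated and untreated mice, and the labels do not say which sample is which, so every comparison below runs over both and the share of treated mice in each group is not known here.

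In the colon wall these genes belong to several layers of mucosal defence. *Nod2* is a cytosolic sensor of bacterial muramyl dipeptide, and *Card9* is the adaptor through which C-type lectin receptors activate NF-kB. *Atg16l1* is part of the complex that attaches LC3 to autophagosomal membranes, *Lrrk2* is a large kinase with links to lysosomal function, and *Xiap* inhibits caspases and is needed for NOD2 signalling. *Il10ra* and *Il10rb* encode the chains of the receptor for interleukin-10, the main restraint on intestinal macrophages, and *Il10rb* is shared with other cytokines of that family. *Ptpn2* dephosphorylates JAK and STAT proteins, *Ptpn22* restrains antigen receptor signalling in lymphocytes, and *Ncf4* encodes p40phox of the phagocyte NADPH oxidase, which makes reactive oxygen against ingested microbes.

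The promoters of *Nod2*, *Card9*, *Ptpn22* and *Lrrk2* are shown because these are the 4 members with a window near their annotated start in the table used. Each window runs from 250 bases before to 50 bases after the RefSeq start, on the gene's strand, 5′ to 3′, in build GRCm38.p6 (RefSeq), and lies within 49 bases of the start in the gene annotation. They are at chr8:88647097-88647396 (*Nod2*, plus strand), chr2:26360860-26361159 (*Card9*, minus strand), chr3:103859545-103859844 (*Ptpn22*, plus strand) and chr15:91672974-91673273 (*Lrrk2*, plus strand). Capitals mark matches, on either strand, to 4 motifs: the GC box (GGGCGG), a PU.1 motif (GAGGAAG), the STAT motif GAS (TTCNNNGAA) and the NF-kB motif.
Nod2: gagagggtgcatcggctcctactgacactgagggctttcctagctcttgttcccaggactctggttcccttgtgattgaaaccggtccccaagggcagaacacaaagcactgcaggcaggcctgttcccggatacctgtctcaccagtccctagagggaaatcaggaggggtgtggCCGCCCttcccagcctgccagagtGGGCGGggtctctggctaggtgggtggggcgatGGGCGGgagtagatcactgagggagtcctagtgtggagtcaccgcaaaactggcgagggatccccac
Card9: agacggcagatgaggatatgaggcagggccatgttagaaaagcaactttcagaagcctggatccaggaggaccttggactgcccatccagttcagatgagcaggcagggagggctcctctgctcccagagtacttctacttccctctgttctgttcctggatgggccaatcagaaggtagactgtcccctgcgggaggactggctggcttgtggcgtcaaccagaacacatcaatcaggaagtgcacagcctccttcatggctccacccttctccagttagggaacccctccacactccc
Ptpn22: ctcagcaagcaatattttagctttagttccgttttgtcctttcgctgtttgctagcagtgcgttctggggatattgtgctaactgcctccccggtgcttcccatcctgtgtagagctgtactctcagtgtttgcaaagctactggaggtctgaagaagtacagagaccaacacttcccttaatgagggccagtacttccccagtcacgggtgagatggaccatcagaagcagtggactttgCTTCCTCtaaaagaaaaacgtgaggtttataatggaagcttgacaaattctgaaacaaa
Lrrk2: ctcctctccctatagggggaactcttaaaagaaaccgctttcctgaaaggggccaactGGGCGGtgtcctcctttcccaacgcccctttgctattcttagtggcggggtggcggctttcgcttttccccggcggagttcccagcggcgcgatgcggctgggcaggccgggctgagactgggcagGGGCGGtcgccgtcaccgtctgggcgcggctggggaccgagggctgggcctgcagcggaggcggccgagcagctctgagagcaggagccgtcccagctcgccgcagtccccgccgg

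The *Nod2* window held 3 GC boxes, beginning 74, 50 and 17 bases before the start, and the *Lrrk2* window held 2, at 192 and 66 bases. The *Ptpn22* window held a single PU.1 match, beginning 9 bases before the start, and the *Card9* window held none of the 4 motifs. Of all 32851 windows of this length, 35.7% held a GC box, 13.6% the PU.1 motif, 8.3% GAS and 1.47% the NF-kB motif, and no motif overlapped another in the windows shown. A match here describes letters in the window and says nothing of binding.

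Sequencing depth lay between 4344988 and 19993833 gene counts a sample (median 15989625). Levels are given as CPM, a gene's count scaled to the total of its sample, and 3 counts, taken as the smallest detectable amount, equalled 0.15 to 0.69 CPM. The lowest count of any member in any sample was 10. Markers of colon epithelium (14 genes, among them *Epcam*, *Cdh1* and *Krt8*) summed to between 2710 and 26050 CPM, and none of the 14 was at 0 in any sample. The knocked-out transcript itself was lower in the knockout samples by 2.06 on the log2 scale in the *Gpsm3* line (SE 0.28, adjusted p = 1.0e-04), whereas the differences of -1.09 for *Nckap1l* (SE 0.41, adjusted p = 1.00), -0.62 for *Dock2* (SE 0.17, adjusted p = 0.210) and -0.48 for *Dok3* (SE 0.39, adjusted p = 1.00) did not pass the test, and the ranges of knockout and wild type overlapped in all 4 lines. Before adjustment over all genes, p in the same edgeR test was 0.0118 for *Nckap1l*, 0.00064 for *Dock2* and 0.223 for *Dok3*. Medians in wild-type and knockout samples were 27.6 and 14.8 CPM for *Nckap1l*, 35.7 and 22.4 CPM for *Dock2*, and 3.67 and 3.30 CPM for *Dok3*. *Gpsm3* was at 0.73 to 7.90 CPM in wild-type and 0.24 to 3.47 CPM in knockout samples of its line. With ranges that overlapped, the knocked-out transcripts did not check the labels of single samples in any of the 4 lines. In 32 of 160 libraries 11 skin keratinocyte genes summed to over 100 CPM (15 of *Nckap1l*, 5 of *Dock2*, 3 of *Gpsm3* and 9 of *Dok3* mice and littermates), and in 5 libraries, all of the *Dok3* line, sex-linked transcripts did not match the label. The sum of 10 B cell markers had a median of 6.48 CPM in *Nckap1l*-/- and 59.2 CPM in wild-type samples of that line, and of 32.1 CPM in *Dock2*-/- and 83.2 CPM in their wild types.

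Levels of the 10 genes spanned a wide range. Per kilobase of merged exons, the median level over 160 samples was 22.3 CPM for *Xiap*, 13.5 for *Il10rb*, 10.7 for *Ptpn2*, 7.31 for *Lrrk2*, 5.58 for *Atg16l1*, 3.26 for *Il10ra*, 3.08 for *Ncf4*, 1.08 for *Card9*, 0.98 for *Nod2* and 0.68 for *Ptpn22*. *Xiap* stood above *Il10rb* in 160 of 160 samples, *Ptpn2* above *Lrrk2* in 154 and *Ncf4* above *Card9* in 158. The order was less firm elsewhere: *Il10ra* exceeded *Ncf4* in 91 of 160 samples and *Card9* exceeded *Nod2* in 85, so neither pair was separated.

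The genes also differed in how far they varied between mice, on the CPM scale. *Xiap* ranged from 161 to 315 CPM (median 211) and *Atg16l1* from 40.9 to 72.5 CPM (median 53.8), that is, by 1.95 and 1.78 times from the lowest to the highest sample. *Ptpn2* ranged from 24.7 to 55.2 CPM (median 33.3) and *Il10rb* from 30.9 to 70.4 CPM (median 51.5). The highest *Xiap* value, in a wild-type sample of the *Dock2* line, stood apart from the next, 261 CPM. These 4 genes, the inhibitor of apoptosis, the autophagy factor, the JAK and STAT phosphatase and the shared receptor chain, varied by no more than 2.28 times among 160 mice.

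*Lrrk2* was intermediate, from 40.9 to 198 CPM (median 86.5). *Ncf4* varied most, from 1.32 to 115 CPM (median 6.21), which is 87.0 times. *Nod2* ranged from 1.07 to 38.7 CPM (median 4.91), *Ptpn22* from 1.07 to 34.7 CPM (median 4.64), *Il10ra* from 4.0 to 60.4 CPM (median 11.4) and *Card9* from 0.97 to 13.5 CPM (median 2.48). A single library, replicate 17 of the samples labelled *Dok3*-/-, held the highest value of 5 of the 10 genes (*Nod2*, *Card9*, *Lrrk2*, *Il10ra* and *Ncf4*), and the same library ranked first of 160 on the inflammation score described below. Replicate 2 of the *Gpsm3*-/- samples, which ranked 153 on that score, held the lowest values of *Nod2*, *Ptpn22* and *Il10ra*.

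Medians of the 8 groups of line and genotype stayed close together for the stable genes. The highest group median exceeded the lowest by 1.03 times for *Xiap* (209 to 216 CPM), 1.1 times for *Atg16l1*, 1.16 times for *Ptpn2* and 1.16 times for *Il10rb* (46.5 CPM in *Nckap1l*-/- to 53.9 CPM in wild-type samples of the *Dok3* line). The ratio was 2.59 for *Nod2*, from 3.58 CPM in *Gpsm3*-line wild types to 9.29 CPM in *Nckap1l*-/-, 1.93 for *Ptpn22*, from 3.03 CPM in *Gpsm3*-line to 5.86 CPM in *Dok3*-line wild types, and 1.74 for *Ncf4*, from 4.76 CPM in *Nckap1l*-/- to 8.29 CPM in samples labelled *Dok3*-/-. For *Card9*, *Lrrk2* and *Il10ra* it lay between 1.31 and 1.41.

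**Figure D1:**
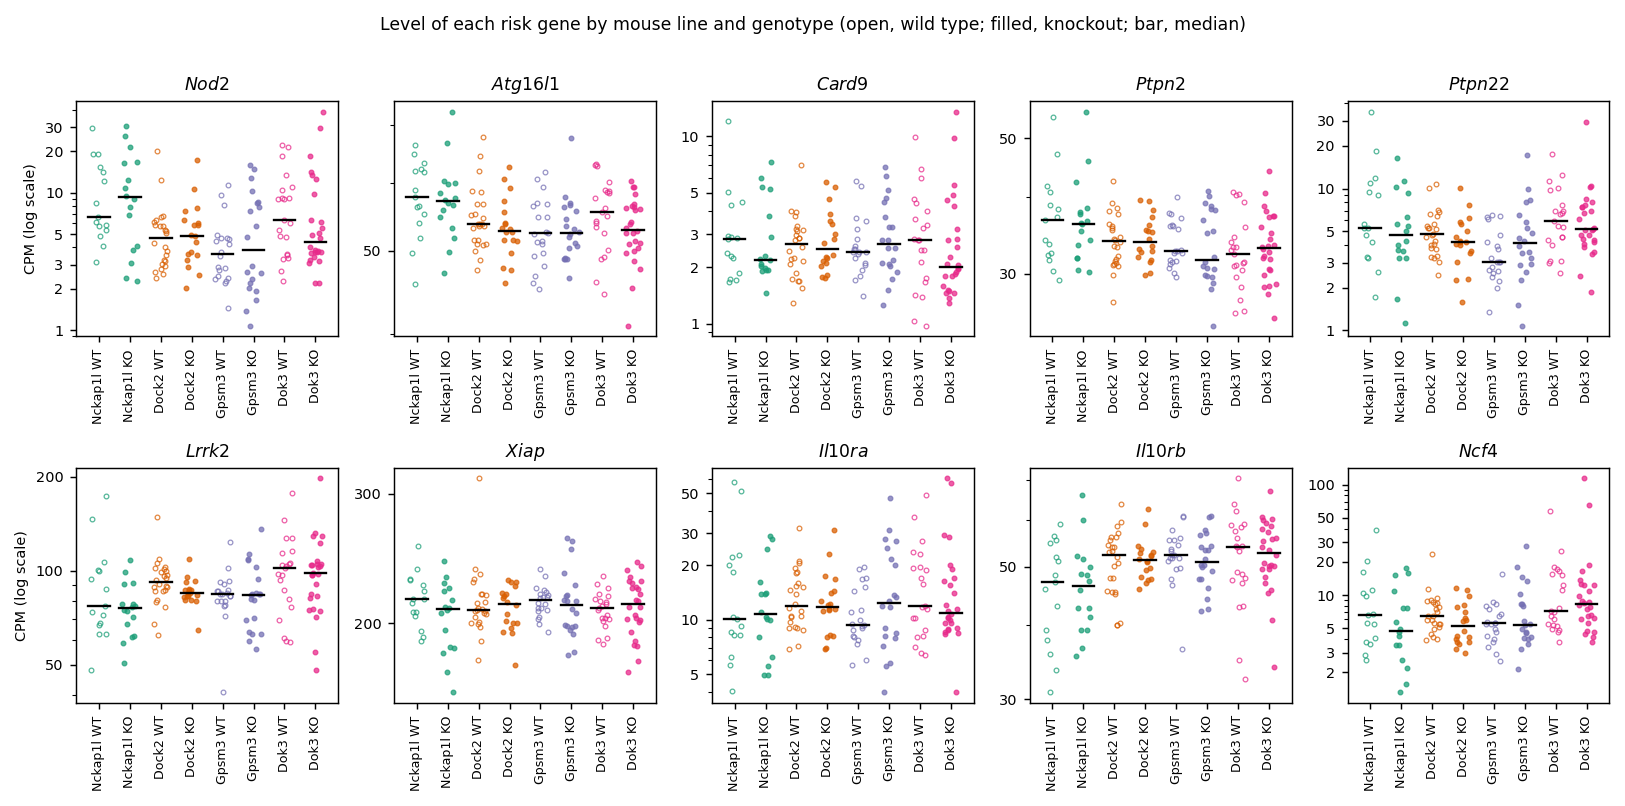
Level of each of the 10 genes in CPM (counts scaled to the library total, log axis, a different range in each panel) in every sample, by line and genotype; open circles are wild-type mice, filled circles knockout mice and bars medians. Within each line the open and filled circles overlap for every gene, and *Ncf4*, *Nod2* and *Ptpn22* spread over more than 30 times within the 160 samples while *Xiap* and *Atg16l1* spread over less than 2 times.

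The first comparison asked whether loss of each knocked-out gene altered the level of these risk genes in the distal colon. None of the 10 was called in any line at an adjusted p under 0.05 in edgeR's quasi-likelihood test, and none was called by DESeq2 or limma-voom either. At an unadjusted p under 0.05, 2 members stood out in the *Gpsm3* line and 0 in each of the other 3 lines. The share of all tested genes that was called was 0% for *Nckap1l* (0 of 17947), 0.034% for *Dock2* (6 of 17648), 0.00569% for *Gpsm3* (1 of 17560) and 0% for *Dok3* (0 of 17612), with 807, 900, 854 and 386 genes at an unadjusted p under 0.05. These are bulk tissue samples, in which fewer cells of a type and less RNA per cell cannot be told apart.

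In the *Nckap1l* line the largest difference was that of *Ncf4*. Its level was 2.55 to 38.9 CPM (median 6.55) in wild-type and 1.32 to 17.5 CPM (median 4.76) in *Nckap1l*-/- samples, with a log2 difference, knockout minus wild type, of -0.55 (SE 0.41, 95% interval -1.39 to 0.29, adjusted p = 1.00). *Nod2* was the highest on that scale, at 0.18 (SE 0.38), with 3.11 to 29.5 CPM (median 6.69) in wild-type and 2.29 to 30.8 CPM (median 9.29) in knockout samples. The ranges overlapped almost wholly for both genes. These values changed sign between alternatives. Without the 15 libraries with skin transcripts the differences were -1.64 (SE 0.54) for *Ncf4*, -1.36 (SE 0.52) for *Ptpn22*, -1.16 (SE 0.49) for *Il10ra* and -1.01 (SE 0.55) for *Nod2*, and with the B cell and skin marker levels as covariates they were 0.75 (SE 0.33), 0.91 (SE 0.34), 0.89 (SE 0.30) and 0.96 (SE 0.38), all 8 values being uncalled. The B cell marker sum itself differed by genotype, with medians of 6.48 CPM in *Nckap1l*-/- and 59.2 CPM in wild-type samples. The fit with this covariate therefore does not isolate the knockout effect. In this line the interval of *Atg16l1*, -0.12 to 0.13, was narrow.

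In the *Dock2* line *Ncf4* again had the most negative difference, with 3.94 to 23.3 CPM (median 6.43) in wild-type and 2.97 to 11.48 CPM (median 5.27) in *Dock2*-/- samples. Its log2 difference was -0.28 (SE 0.20, interval -0.68 to 0.11, adjusted p = 1.00), and it was -0.30 (SE 0.09, p = 0.0028, adjusted p = 0.270) with the inflammation score as a covariate. With B cell and skin levels as covariates it changed sign, to 0.12 (SE 0.21), and was not called. The highest difference was that of *Card9*, 0.12 (SE 0.17), and 4 members lay above 0. *Lrrk2* differed by -0.10 (SE 0.07), and by -0.05 (SE 0.06) with the B cell and skin levels as covariates, and was not called. The B cell marker sum was itself lower in *Dock2*-/- samples, so that this covariate follows genotype in part. A link between *Lrrk2* and B cell content was not tested. Of the 10 B cell markers, *Cr2*, a complement receptor, was the single call (-1.53, SE 0.28, adjusted p = 0.0127 by edgeR). That call was lost at a threshold of 0.01 and under limma-voom, by which 0 genes of this line were called.

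In the *Gpsm3* line 9 of 10 members had a higher fitted level in knockout than in wild-type males, although none was called. Their median difference was 0.13, beside 0.0032 over all genes. Several members rose and fell together over the samples, as described below, so the 9 are not separate results. *Il10ra* was at 5.66 to 19.5 CPM (median 9.41) in wild-type and 4.0 to 46.7 CPM (median 12.3) in *Gpsm3*-/- males, a log2 difference of 0.54 (SE 0.24, interval 0.06 to 1.02, p = 0.0274, adjusted p = 0.936). *Ptpn22* was at 1.34 to 6.52 CPM (median 3.03) and 1.07 to 17.2 CPM (median 4.12) in the same groups, a difference of 0.50 (SE 0.24, p = 0.0442, adjusted p = 0.936). The highest knockout samples exceeded every wild-type sample for both genes while the lowest knockout samples lay below every wild-type sample. *Nod2* (0.47, SE 0.31) and *Ncf4* (0.44, SE 0.25) gave values of similar size. With the inflammation score as a covariate the 4 differences were 0.17 for *Il10ra*, 0.22 for *Ptpn22*, 0.01 for *Nod2* and 0.07 for *Ncf4*. The genes of that score had a median difference of 0.92 in the same direction in this line, with 0 of 9 called.

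In the *Dok3* line the differences between samples labelled *Dok3*-/- and wild types ran from -0.07 (SE 0.27) for *Card9* to 0.31 (SE 0.37) for *Ncf4*. *Ncf4* was at 3.74 to 58.1 CPM (median 7.19) in wild-type samples and at 3.72 to 115 CPM (median 8.29) in samples labelled *Dok3*-/-, and its difference was -0.18 under DESeq2. *Xiap* gave the narrowest interval of any member here, -0.05 to 0.08. Leaving out the 5 libraries whose sex-linked transcripts did not match the label left 0 members called.

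No gene of the partner lists described below was called in any of the 4 lines. The difference between lines was tested directly. No member was called for a knockout effect that differed among the 4 lines (smallest p = 0.0874 for *Ptpn22*, adjusted p = 1.00, edgeR), beside 0.69% of all genes. Nor was any member called for a knockout effect that differed between males and females, beside 0% of genes for *Nckap1l* and 0.198% for *Dock2*. The largest of these values was -1.03 (SE 0.78) for *Nod2* in the *Nckap1l* line, with 4 female knockout samples.

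**Figure D2:**
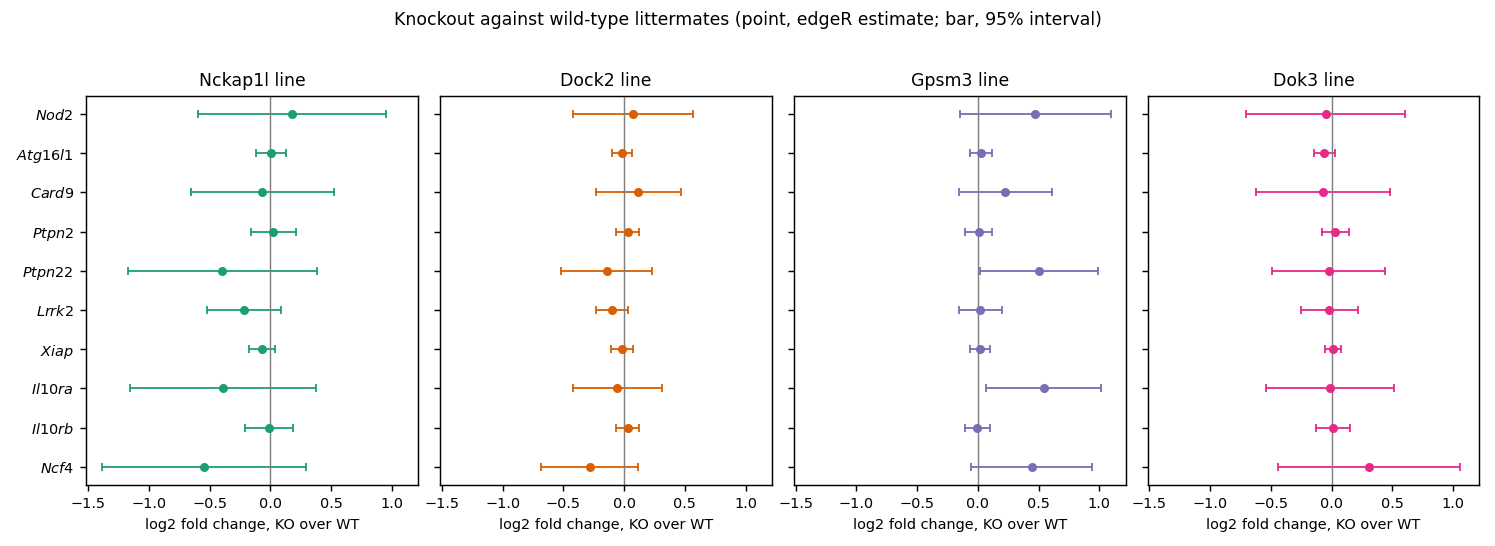
Log2 fold change of each of the 10 genes, knockout over wild-type littermates, in 4 panels, 1 per line; points are edgeR estimates and bars 95% intervals. Intervals of *Il10ra* and *Ptpn22* in the *Gpsm3* line lie just above 0 without passing the adjusted test, and those of *Atg16l1*, *Ptpn2*, *Xiap* and *Il10rb* are narrow and include 0 in every line.

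Males and females could be compared in the *Nckap1l* and *Dock2* lines. *Xiap* lies on the X chromosome, and its level was 176 to 237 CPM (median 209) in females and 194 to 315 CPM (median 211) in males of the *Dock2* line. The log2 difference, male minus female, was 0.07 (SE 0.05, interval -0.02 to 0.16) for *Dock2* and 0.03 (SE 0.06, interval -0.08 to 0.14) for *Nckap1l*. No member was called in either line (edgeR and DESeq2), beside 0.178% of genes for *Nckap1l* and 9.75% for *Dock2*. At an unadjusted p under 0.05 the count was 0 and 1, the latter being *Il10rb*.

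*Il10rb* was at 40.0 to 56.1 CPM (median 50.3) in females and 39.9 to 63.8 CPM (median 53.1) in males of the *Dock2* line, a difference of 0.11 (SE 0.05, p = 0.0215, adjusted p = 0.121). *Nod2* was at 2.03 to 12.3 CPM (median 3.81) in females and 2.58 to 20.2 CPM (median 5.72) in males, a difference of 0.44 (SE 0.24, adjusted p = 0.248). Both differences passed the test once the 5 *Dock2*-line libraries with skin transcripts were left out, at 0.16 for *Il10rb* (SE 0.04, adjusted p = 0.0088) and 0.73 for *Nod2* (SE 0.24, adjusted p = 0.0341), higher in males. In that setting 3202 of 17525 genes were called, so 2 of 10 members is read as nothing particular to them. With B cell and skin levels as covariates *Il10rb* was called alone among the members (0.13, adjusted p = 0.0360), beside 2707 of 17648 genes. Beside these, *Lcn2* and *Nos2*, genes of the inflammation score, were called higher in males of this line, by 1.96 (SE 0.52) and 2.69 (SE 0.64).

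The partner genes of the *Dock2* line are to be read against the 9.75% of all genes called in this comparison. Of them, 2 of 18 NOD and CARD9 signalling genes were higher in males, *Ripk2*, the kinase that acts directly below NOD2 (0.26, SE 0.08, adjusted p = 0.0358), and *Chuk*, an IkB kinase (0.12, SE 0.04). Of 23 autophagy genes, 2 were higher, *Atg9a*, a membrane carrier (0.11, SE 0.03), and *Irgm1*, an interferon-induced GTPase (0.68, SE 0.19). Of 8 XIAP partners, 2 were higher, among them *Ripk3*, a necroptosis kinase (0.65, SE 0.20), and of 6 NADPH oxidase genes 1 was, *Rac1* (0.23, SE 0.04). Among 36 other IBD risk genes *Ripk2* was again the single call, and none of 9 tested IL-10 family genes or 16 phosphatase substrates and partners was called. No gene of these lists was called lower in males. Of the marker lists, 3 of 14 colon epithelium genes (*Krt20* at 0.40, *Krt19* at 0.24 and *Krt8* at 0.19), 1 of 14 macrophage and monocyte genes (*Ccr2* at 0.71) and 1 of 7 tested striated muscle genes (*Actn3* at 3.71) were higher in males.

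Wild-type males of the *Dok3* line (strain 129, 21 mice) were next compared with those of the *Dock2* (12) and *Gpsm3* (20) lines (both C57BL6/J), all taken on day 10. *Nod2*, *Ptpn22* and *Ncf4* were higher in the *Dok3* line, 3 of 10 members against 12.3% of all genes called higher and 21.9% called in either direction. *Ncf4* was at 3.74 to 58.1 CPM (median 7.19) in the *Dok3* line, 3.94 to 23.3 CPM (median 5.92) in *Dock2*-line and 2.55 to 15.4 CPM (median 5.52) in *Gpsm3*-line mice, and differed by 0.83 on the log2 scale (SE 0.24, adjusted p = 0.0102). *Nod2* was at 2.27 to 22.4 CPM (median 6.33), 2.58 to 20.2 CPM (median 5.48) and 1.45 to 11.4 CPM (median 3.58), a difference of 0.73 (SE 0.25, adjusted p = 0.0278). *Ptpn22* was at 2.53 to 17.4 CPM (median 5.86), 2.45 to 10.9 CPM (median 4.27) and 1.34 to 6.52 CPM (median 3.03), a difference of 0.67 (SE 0.18, adjusted p = 0.0070). The ranges of the 3 lines overlapped for each gene.

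Among the uncalled members *Il10ra* differed by 0.39 (SE 0.19, adjusted p = 0.139) and *Xiap* by -0.08 (SE 0.04, adjusted p = 0.0797), and the other 5 by between -0.07 (*Ptpn2*) and 0.21 (*Card9*). Strain, line and DSS dose differ together in this comparison and cannot be told apart, and the share of treated mice is not known. The sample numbers differ as well: *Dok3*-line and *Dock2*-line samples carry numbers of different series, and *Gpsm3*-line samples carry numbers of both. An effect of the number series was not tested and is not separated from the others here. The summed T cell markers had medians of 33.1 CPM in *Dok3*-line, 21.9 CPM in *Dock2*-line and 21.5 CPM in *Gpsm3*-line males, with 10 of 11 tested markers called higher, and B cell markers had medians of 104, 58.3 and 69.7 CPM, with 5 of 10 called higher. The genes of the inflammation score described below had a median difference of 1.20, with 1 of 12 called (*Saa3*, an acute-phase protein, 2.55, SE 0.94). With B cell and skin levels as covariates no member was called, and the differences were 0.10 for *Ncf4*, 0.10 for *Ptpn22* and -0.06 for *Nod2*. With the inflammation score as the covariate *Nod2* (0.51), *Ncf4* (0.42) and *Ptpn22* (0.53) passed the test along with *Ptpn2* (-0.10, adjusted p = 0.0477).

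The sex-linked transcripts of 2 of the 21 *Dok3*-line libraries did not match the label, which is male for all 21. Without these 2 libraries *Nod2* (0.82, SE 0.25), *Ptpn22* (0.71, SE 0.19) and *Ncf4* (0.91, SE 0.25) were still called. Without the libraries with skin transcripts, *Nod2* lost its call (0.42, adjusted p = 0.357), *Lrrk2* gained one (0.23, adjusted p = 0.0321), and *Ncf4* (0.79) and *Ptpn22* (0.67) were still called. Between the C57BL6/J lines, *Gpsm3* minus *Dock2*, no member was called (edgeR and DESeq2; 0 at an unadjusted p under 0.05), beside 0.0108% of all genes, and values ran from -0.50 (SE 0.32) for *Nod2* to 0.01 (SE 0.08) for *Il10rb*.

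**Figure D3:**
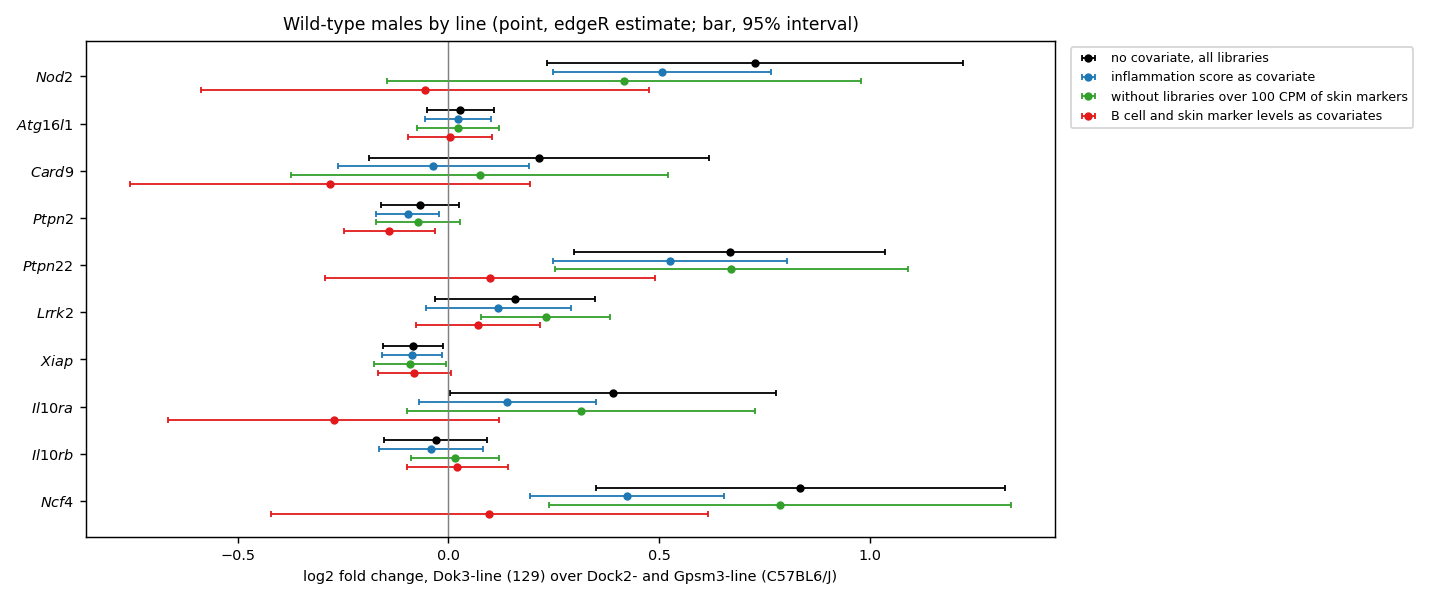
Log2 difference of each of the 10 genes between wild-type males of the *Dok3* line (strain 129) and the mean of the *Dock2* and *Gpsm3* lines (C57BL6/J), under 4 models; points are edgeR estimates and bars 95% intervals. *Ncf4*, *Nod2* and *Ptpn22* lie at 0.83, 0.73 and 0.67 without covariates and between -0.06 and 0.10 once B cell and skin marker levels are covariates.

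Partner genes were counted in the same comparison of wild-type males, in which 12.3% of all genes were called higher and 21.9% in either direction. Of 6 genes of the NADPH oxidase to which *Ncf4* belongs, 3 were higher in the *Dok3* line and 0 lower: *Ncf1* (p47phox, 0.87, SE 0.27), *Cybb* (the catalytic subunit, 0.55, SE 0.19) and *Rac2* (0.76, SE 0.28). With B cell and skin levels as covariates *Cybb* was at -0.07 and *Rac2* at -0.05, and none of the 3 was called. Of 16 substrates and partners of the phosphatases, 9 were higher and 0 lower, among them *Cd3e*, a T cell receptor chain that is also among the T cell markers (0.97, SE 0.22), *Fyn*, a Src-family kinase (0.44, SE 0.10), and *Stat5b* (0.28, SE 0.07), and these 3 too lost the call with those covariates. The median differences were 0.32 and 0.28, beside 0.01 over all genes. Of 36 other IBD risk genes tested, 13 were higher and 2 lower, with *Il18r1*, a chain of the interleukin-18 receptor, at 0.90 (SE 0.17), the lectin gene *Itln1* at 0.88 (SE 0.22), *Plcg2* at 0.51 (SE 0.10), the RNA sensor *Ifih1* at -0.26 (SE 0.09) and the receptor *Tnfrsf14* at -0.29 (SE 0.08). Of these, *Il18r1*, *Itln1*, *Plcg2* and *Ifih1* lost the call with B cell and skin levels as covariates.

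The NOD and CARD9 list had 1 higher gene, *Malt1* (0.26, SE 0.05), and 1 lower, *Chuk* (-0.17, SE 0.04), of 18. Autophagy had *Atg101* higher (0.16, SE 0.05) and *Becn1* lower (-0.09, SE 0.03) of 23. Of 8 XIAP partners 1 was called higher, *Xaf1*, an interferon-induced antagonist of XIAP (0.74, SE 0.18), and 1 was called lower. *Jak1* (0.12, SE 0.04) and *Il20ra* (1.66, SE 0.59) were higher of 10 tested IL-10 family genes. With B cell and skin levels as covariates *Malt1*, *Chuk*, *Xaf1*, *Jak1* and *Il20ra* were not called. The shares called in the NOD and CARD9 and the autophagy lists lie below the 21.9% of all genes called in either direction, and nothing particular to any of these 4 lists is read from the counts.

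Because the labels do not separate inflamed from uninflamed mice, the members were related to a continuous inflammation score. The score of a sample was the mean log2 CPM of 15 genes: *S100a8*, *S100a9*, *Lcn2*, *Il1b*, *Saa3*, *Reg3b*, *Reg3g*, *Cxcl2*, *Cxcl5*, *Nos2*, *Il6*, *Osm*, *Il11*, *Mmp10* and *Mmp13*, none of which is a member. It ran from -1.29 to 7.18 (median 0.38, SD 2.07), and no sample was assigned to a treatment by it. Slopes are given as the log2 change per SD of the score, from edgeR with line, genotype and sex in the model. Of all genes 75% had a slope past the threshold, 38.9% upward and 36.1% downward, so that passing the test is common here and the size of a slope carries more than its call.

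Of the 10 members, 8 rose with the score, 1 fell and 1 was not called. *Nod2* had the steepest slope, 0.88 (SE 0.04, adjusted p = 3.5e-53), which is a factor of 1.84 per SD, followed by *Ncf4* (0.82, SE 0.03, adjusted p = 4.8e-52). *Il10ra* (0.69, SE 0.03), *Ptpn22* (0.61, SE 0.04) and *Card9* (0.61, SE 0.03) also rose. All 5 slopes lie above 0.40, the value that 90% of genes did not exceed.

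*Lrrk2* (0.13, SE 0.02), *Ptpn2* (0.11, SE 0.01) and *Atg16l1* (0.04, SE 0.01, adjusted p = 0.0026) rose by far less. *Xiap* fell by 0.03 per SD (SE 0.01, adjusted p = 0.0080), while its slope within the *Dock2* line alone was 0.04 (SE 0.03) and was not called. *Xiap* was not called without the libraries with skin transcripts (-0.02, adjusted p = 0.212) or with B cell and skin levels as covariates (-0.01, adjusted p = 0.515). *Il10rb* was flat, with a slope of 0.02 (SE 0.02, interval -0.01 to 0.05, adjusted p = 0.241), and reached 0.05 (adjusted p = 0.0023) with B cell and skin levels as covariates. The chains of the IL-10 receptor thus had slopes of 0.69 and 0.02 side by side.

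**Figure D4:**
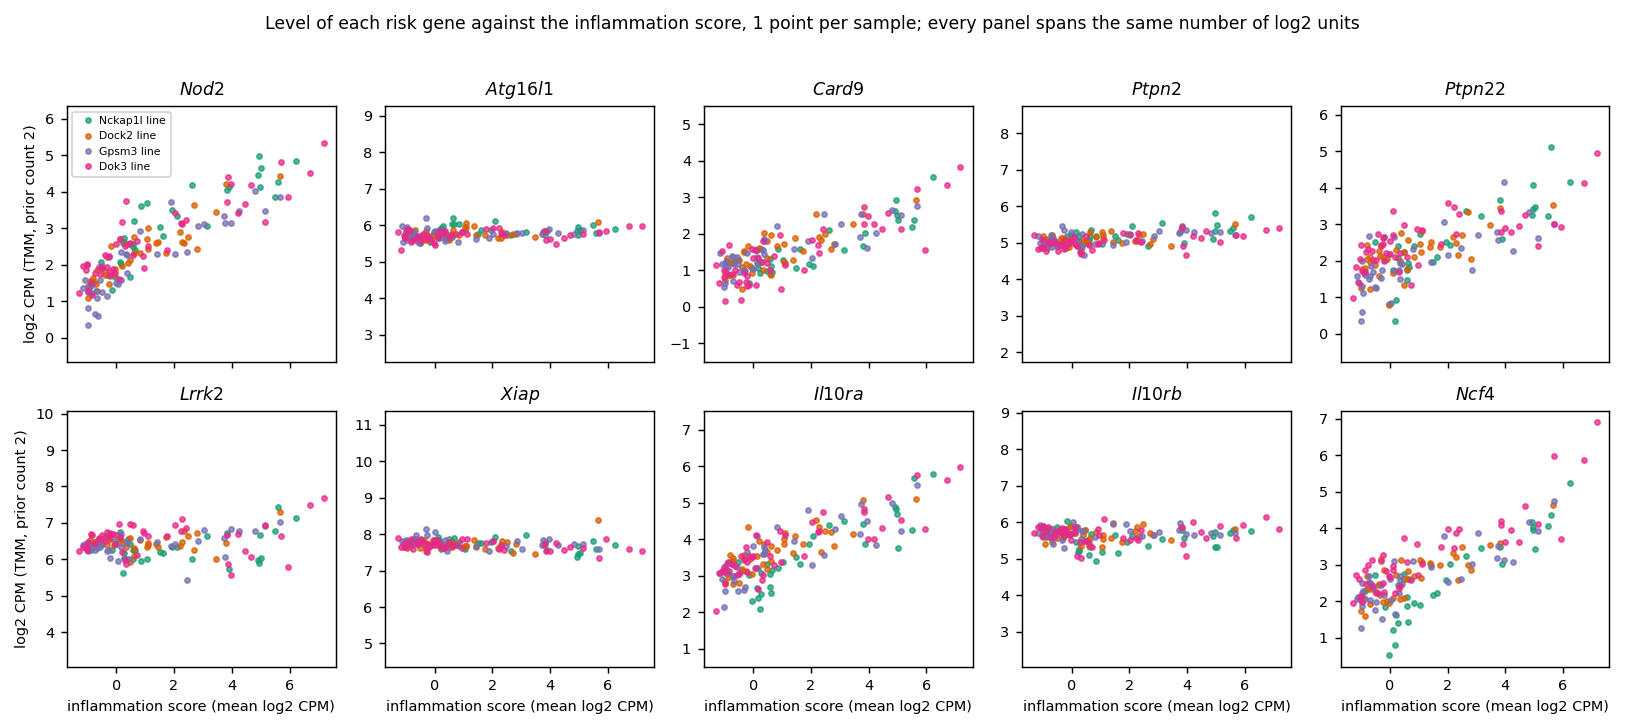
Normalized level of each of the 10 genes (log2 CPM after TMM scaling) against the inflammation score (mean log2 CPM of 15 genes), 1 point per sample, coloured by line; every panel spans the same number of log2 units. Points climb from lower left to upper right for *Nod2*, *Card9*, *Ptpn22*, *Il10ra* and *Ncf4*, and lie nearly level for *Atg16l1*, *Ptpn2*, *Xiap* and *Il10rb*.

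The steep slopes held within each line fitted alone. *Nod2* had slopes of 0.90 (*Nckap1l*), 0.92 (*Dock2*), 0.90 (*Gpsm3*) and 0.83 (*Dok3*), and *Ncf4* 0.91, 0.74, 0.66 and 0.89. *Il10ra* ranged from 0.64 to 0.81, *Card9* from 0.50 to 0.65 and *Ptpn22* from 0.50 in the *Dok3* line to 0.84 in the *Nckap1l* line. Slopes that differed among lines were called for 6.21% of all genes and for 0 of 10 members (edgeR, adjusted over all genes), with 3 members at an unadjusted p under 0.05: *Ptpn22* (p = 0.0161, adjusted p = 0.119), *Xiap* (p = 0.0220) and *Ncf4* (p = 0.0301). From 6 to 9 members were called under the 12 alternatives run, and the 5 steepest slopes lay at 0.52 or more with B cell and skin levels as covariates.

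**Figure D5:**
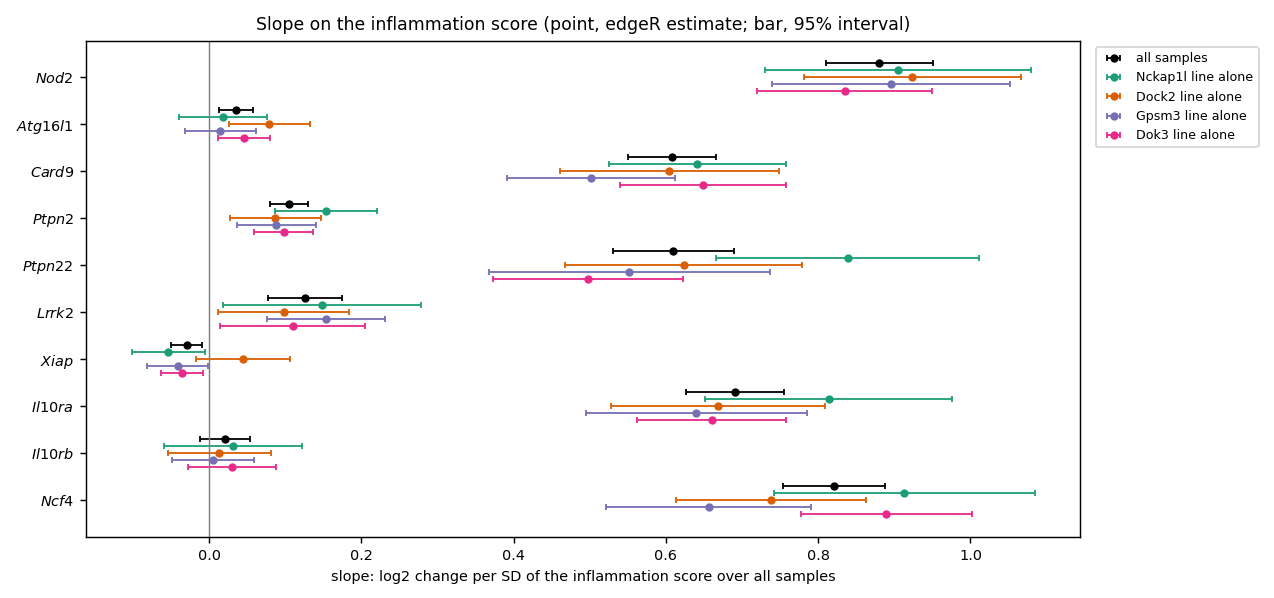
Slope of each of the 10 genes on the inflammation score, as log2 change per SD of the score, for all samples and for each line alone; points are edgeR estimates and bars 95% intervals. *Nod2*, *Ncf4*, *Il10ra*, *Card9* and *Ptpn22* lie to the right, with no interval reaching below 0.37, while the intervals of *Atg16l1*, *Ptpn2*, *Lrrk2*, *Xiap* and *Il10rb* stay between -0.10 and 0.28.

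Markers of inflammatory cells moved with the score as well. All 10 neutrophil markers, of which *S100a8* and *S100a9* are also in the score, had positive called slopes (median 2.50), as did 14 of 14 macrophage and monocyte markers (median 0.53) and 11 of 11 tested T cell markers (median 0.51), whereas 9 of 14 colon epithelium markers fell and 1 rose (median -0.13). Of B cell markers 9 of 10 rose, of dendritic cell markers 4 of 7, and of 6 plasma cell markers 2 rose and 2 fell. All 11 skin markers also rose with the score (median 2.05), and without the libraries with skin transcripts the slopes were 0.87 for *Nod2*, 0.79 for *Ncf4*, 0.67 for *Il10ra*, 0.59 for *Ptpn22* and 0.58 for *Card9*. None of the macrophage and monocyte markers was at 0 in any sample. Fitted beside the score, the B cell marker level had a called slope for 8.7% of genes and for 4 members, *Ncf4* (0.34, SE 0.05), *Ptpn22* (0.34, SE 0.06), *Il10ra* (0.30, SE 0.05) and *Lrrk2* (0.11, SE 0.03). The skin marker level had one for 61.2% of genes and for 5 members, with *Nod2* higher (0.25, SE 0.05) and *Lrrk2* (-0.19, SE 0.02), *Il10rb* (-0.14, SE 0.02), *Xiap* (-0.07, SE 0.01) and *Ptpn2* (-0.06, SE 0.02) lower.

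The partners of each member were counted against the same score, on which 38.9% of all genes rose and 36.1% fell. Nothing particular to a list is read from its count alone, here or in the lists that follow. Of 18 genes of NOD and CARD9 signalling, 15 rose and 2 fell (median slope 0.12, beside 0.01 over all genes). The rising genes of smallest p were C-type lectin receptors that signal through CARD9: *Clec4e* (2.87, SE 0.06), *Clec7a* (0.95, SE 0.04) and *Clec4n* (0.82, SE 0.03). *Ikbkg*, the regulatory IkB kinase subunit (-0.16, SE 0.01), and *Tab1* (-0.14, SE 0.01) fell. Of 6 NADPH oxidase genes, 6 rose (median 0.60), with *Rac2* at 0.88 (SE 0.04) and *Ncf1* at 0.85 (SE 0.03). Of 16 substrates and partners of PTPN2 and PTPN22, 15 rose (median 0.29), with *Ptprc*, the leukocyte phosphatase CD45, at 0.71 (SE 0.04), *Vav1* at 0.47 (SE 0.03) and *Jak3* at 0.40 (SE 0.02).

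Of 23 autophagy genes, 12 fell and 5 rose (median -0.03), beside 36.1% and 38.9% of all genes. *Pik3c3*, the lipid kinase that starts autophagosome formation (-0.20, SE 0.02), *Atg10* (-0.19, SE 0.02) and *Wipi2*, which recruits ATG16L1 (-0.07, SE 0.01), fell, and *Irgm1* (0.38, SE 0.06), *Atg3* (0.09, SE 0.01) and *Becn1* (0.04, SE 0.01) rose. Among 11 tested IL-10 family genes, 7 rose and 3 fell. *Il10* itself rose by 1.17 (SE 0.06), and its signalling genes *Stat3* by 0.30 (SE 0.01) and *Socs3*, a feedback inhibitor, by 1.46 (SE 0.05), whereas the epithelial receptor chain *Il22ra1* (-0.25, SE 0.02) and the soluble antagonist *Il22ra2* (-0.70, SE 0.07) fell; *Ifnlr1* fell by 0.04 but had a slope of 0.05 within the *Dock2* line.

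Of 8 XIAP partners, 4 rose and 2 fell: *Ripk3* had a slope of 0.67 (SE 0.03), *Ripk1* and *Htra2* of 0.07 each, *Casp9* of -0.10 (SE 0.01) and *Diablo*, which blocks XIAP, of -0.04 (SE 0.01). Among 37 other IBD risk genes, 24 rose and 8 fell (median 0.17). *Il18rap*, an interleukin-18 receptor chain (1.34, SE 0.04), the NF-kB subunit *Rel* (0.65, SE 0.03) and the laminin *Lamb1* (0.39, SE 0.02) rose, and the epithelial genes *Rnf186* (-0.41, SE 0.05), *Hnf4a* (-0.33, SE 0.03) and *Cdh1* (-0.17, SE 0.02) fell.

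As a description of likeness, Spearman's rho was computed between each member and the other genes, among 14381 named genes, over 160 samples, after removing the mean of each line and genotype. Samples share library depth, cell mix and inflammation, so these values carry no test. Among members *Il10ra* and *Ncf4* were the most alike (rho 0.91), followed by *Il10ra* with *Ptpn22* (0.86), *Ptpn22* with *Ncf4* (0.82) and *Nod2* with *Il10ra* (0.80). *Il10ra* and *Il10rb*, which pair in the receptor, had a rho of 0.18, and *Nod2* and *Xiap*, which act in the same pathway, of -0.45.

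The genes most like *Nod2* were *Rab8b* (0.90), *Tnfaip2* (0.90) and *Icam1*, an adhesion molecule (0.90). Those most like *Il10ra* were *Ccdc88b*, *Laptm5* and *Themis2* (0.94 each), and those most like *Ncf4* were *Rac2* (0.94), *Arhgap30* (0.94) and *Lcp1* (0.94), of which *Rac2* is a partner in the oxidase. *Ptpn22* was nearest to *Itgal*, an integrin of lymphocytes (0.89), *Pik3cd* (0.89) and *Ptprc* (0.88), and *Card9* to *Fcgr2b* (0.84), *Sirpa* (0.84) and *Rab8b* (0.84). The nearest genes of the flat members had lower values: *Ccdc186* for *Xiap* (0.75), *A630001G21Rik* for *Lrrk2* (0.74), *Jmjd6* for *Atg16l1* (0.74), *Rab43* for *Il10rb* (0.73) and *Ergic2* for *Ptpn2* (0.71).

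Members were also set against the mean log2 CPM of each marker list, less the group means. *Nod2* was most like the neutrophil list (0.90), *Ptpn22* the T cell list (0.87) and *Lrrk2* the B cell list (0.65). *Il10ra* (0.93), *Ncf4* (0.87) and *Card9* (0.82) were most like the macrophage and monocyte list. *Xiap* (0.61) and *Il10rb* (0.43) had positive values with colon epithelium. The named neighbours were the same under scaling by library total for 25 of 30 gene and member pairs.

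Several members overlap other genes on the genome, namely *Atg16l1* (*Gm25395* and *Scarna6*), *Card9* (*Gm13562*, antisense), *Ptpn22* (*Gm15472*, and *Gm15602* antisense), *Il10ra* (*Gm20612*, antisense, and *Mir7086*) and *Il10rb* (*Gm21970*). The strand setting used in counting is not given in the sources used here, so reads of these members and of their overlapping partners cannot be told apart. In GRCm38 *Nod2* lies at chr8:88647315-88688474, *Atg16l1* at chr1:87755870-87792428, *Card9* at chr2:26352176-26360918, *Ptpn2* at chr18:67665511-67724595 and *Ptpn22* at chr3:103859795-103912247. *Lrrk2* lies at chr15:91673175-91816120, *Xiap* at chrX:42059679-42109656, *Il10ra* at chr9:45253837-45269149, *Il10rb* at chr16:91406164-91425834 and *Ncf4* at chr15:78244801-78262580.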

How the data were processed

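RNA was measured in 160 distal colon samples, 1 file each. Per the labels and the study's methods, libraries were made with a stranded, rRNA-depleted kit and sequenced as single reads of 100 bases, aligned to mm10 with STAR and counted with featureCounts, and the authors deposited raw counts for 39179 Ensembl genes. Tool versions and the strand setting are not given in the sources used here. Totals per sample were 4344988 to 19993833, and precision from them covers counting error only. GENCODE vM21 (GRCm38) named 37607 genes (95.988%), which held 99.6677% of counts.

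Low counts were removed by filterByExpr, TMM gave the scaling, and edgeR 4.0.16 (R 4.3.3) ran its quasi-likelihood test, with p adjusted by Benjamini-Hochberg over all genes tested (threshold 0.05). Each line was fitted alone, sex being a term where a line held both sexes, and the slope fit used all samples with group and sex. Levels are CPM of raw counts by library total; log2 CPM used a prior count of 2. The labels give no animal identifiers, so each sample was taken as 1 mouse and p-values measure the spread between these samples. Members and gene lists were chosen with earlier results of these data known. Named were all members, the 3 nearest genes of each, the knocked-out genes and, of each list, up to 3 called genes of smallest p per direction (in the knockout and sex comparisons, every called gene); some of these genes are not reported here.

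The alternatives tried were scaling by library total, DESeq2 1.42.0, voom in limma 3.58.1, as in the study, no filter, a threshold of 0.01, the inflammation score or runs of sample numbers as a covariate, males only and single lines. Those chosen after seeing the data left out libraries over 100 CPM of skin genes, libraries whose sex-linked transcripts did not match the label or the 2 samples farthest from the median score, or added B cell and skin levels as covariates; the test of slopes among lines was also added then. Scripts were tested on simulated counts. No pair of libraries of a group was as close as counting noise (lowest chi-square per gene 4.60 over 1569 pairs). Python 3.11.15 was used outside R.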

Additional observations from a re-analysis of the deposited data

Results flagged for a closer look

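Within the groups of 4 to 10 samples formed by line, genotype and sex, 11 of 50 extreme values stood apart from the rest by Dixon's test at the 95% critical value. That value assumes normal and independent data, whereas CPM is skewed and several members vary together in the same libraries. The count therefore cannot be set against a rate given by chance. No explanation was tested. Among wild-type males of the *Nckap1l* line, replicate 10, the sample with the highest inflammation score of the 7, held the highest *Card9* (12.0 CPM, next 4.32), *Il10ra* (57.2 CPM, next 19.95) and *Ncf4* (38.9 CPM, next 16.2). Among wild-type females of that line, replicate 8, again first of 8 on the score, held the highest *Ptpn22* (34.7 CPM, next 10.9), *Lrrk2* (174 CPM, next 101) and *Il10ra* (51.3 CPM, next 22.8). *Il10rb* was highest in 1 of 4 *Nckap1l*-/- females (52.2 CPM, next 41.3), the lowest of the 4 on the score.

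In *Dock2*-/- females, replicate 13, first of 8 on the score, had the highest *Nod2* (10.7 CPM, next 5.87) and the lowest *Lrrk2* (64.8 CPM, next 80.0). In *Dock2*-/- males the highest *Nod2* was 17.4 CPM (next 7.74), in the sample first of 10 on the score, and the highest *Lrrk2* was 109 CPM (next 95.4), in the sample second on the score.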

How the results depend on the processing

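No paired analysis was possible because the labels carry no replicate numbers, and numbers given in accession order pair nothing. Leaving out samples whose sex-linked transcripts did not match the label gave no value in the *Nckap1l* and *Dock2* lines, which held no such sample. No member was called for a knockout effect in any line under any alternative run, and the slopes of *Nod2*, *Card9*, *Ptpn22*, *Il10ra* and *Ncf4* were called under all 12. The tally of members took all of them in the slope and in the *Dok3*-line wild-type comparison. Elsewhere it took only the lowest and highest member and those at an unadjusted p under 0.05, so it is not a full count. Of these members' values under alternatives, 282 kept their direction and their side of the threshold, 10 lost the call, 6 gained it and 21 changed sign. Of those of the other named genes, which are list and knocked-out genes, 581 kept both, 51 lost the call and 5 changed sign. The cause of a changed value was not tested.

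Counts of all genes called moved as follows. For the knockout in the *Nckap1l* line, 0 became 21 under DESeq2, 27 without a filter and 3 with the score as a covariate. In the *Dock2* line, 6 became 69 under DESeq2, 0 under limma-voom, 31 without a filter, 11 with the score, 1 at a threshold of 0.01, 1 in males only, 79 without the libraries with skin transcripts and 0 with B cell and skin levels as covariates. In the *Gpsm3* line, 1 became 4 under DESeq2, 32 without a filter and 2 without those libraries, and in the *Dok3* line 0 became 3 under DESeq2 and 15 without a filter. For sex in the *Nckap1l* line, 32 became 192 under DESeq2, 55 without a filter, 102 with the score, 9 without the skin libraries and 250 with B cell and skin levels; in the *Dock2* line 1721 became 3202 and 2707 under the last 2, and members called 0 became 2 and 1. For wild-type males of the *Dok3* line, 4033 became 2683 and 1849, and with B cell and skin levels members called went from 3 to 0. For *Gpsm3* against *Dock2* wild types, 2 became 93 under DESeq2, 49 without a filter, 1 by library total, 4 without the skin libraries and 5 with B cell and skin levels. For the slope, 14882 became 8243, 9712 and 9487 in the *Nckap1l*, *Dock2* and *Gpsm3* lines alone, with fewer samples. Scaling by library total shifted the median of all genes by no more than -0.0248, but the calls higher in males went from 13 of 32 to 6 of 26 in the *Nckap1l* line and from 970 of 1721 to 655 of 1520 in the *Dock2* line, and those higher in *Gpsm3* than *Dock2* wild types from 1 of 2 to 0 of 1.

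Among the tallied values, signs changed for these log2 values. Members outside the tally could change sign too, as *Ptpn22* and *Il10ra* of the *Nckap1l* line did between alternatives. With B cell and skin levels, the *Dok3*-line wild-type differences became -0.28 for *Card9*, -0.27 for *Il10ra*, -0.0558 for *Nod2*, 0.0207 for *Il10rb*, -0.0726 for *Cybb*, -0.0546 for *Rac2*, -0.0539 for *Dock2* and -0.0506 for *Gpsm3*; *Card9* was -0.0354 with the score and *Il10rb* 0.0152 without the skin libraries. In *Gpsm3* against *Dock2* wild types *Il10rb* became -0.0411 with B cell and skin levels, -0.0757 without the skin libraries and -0.0038 by library total. Knockout effects became 0.75 (*Ncf4*, *Nckap1l* line), 0.12 (*Ncf4*, *Dock2* line), 0.11 (*Card9*, *Dok3* line) and 0.0043 (*Il10rb*, *Gpsm3* line) with B cell and skin levels. Without the skin libraries they became -1.01 (*Nod2*, *Nckap1l* line), -0.0231 (*Card9*, *Dock2* line) and 0.0080 (*Il10rb*, *Gpsm3* line), in males only -0.23 (*Nod2*, *Nckap1l* line), and under DESeq2 -0.18 (*Ncf4*, *Dok3* line). The sex difference of *Ptpn22* in the *Dock2* line became 0.0111 with B cell and skin levels and 0.17 without the skin libraries, and slopes in the *Dock2* line alone were 0.0441 for *Xiap* and 0.0541 for *Ifnlr1*. At 3 counts per sample, levels under 0.15 to 0.69 CPM could not be seen; no member was that low.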
